A study of Homo sapiens with 18 samples.

Results

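Binding of the glucocorticoid receptor (GR) and of RELA, the transactivating subunit of NF-κB, was examined at 26 sites assigned to the epidermal growth factor receptor gene EGFR, to 5 genes of EGFR ligands (AREG, EREG, HBEGF, TGFA and BTC), to the partner receptors ERBB2 and ERBB3, and to ERRFI1. These sites are the entries of the deposited table whose nearest gene is 1 of these 9 genes, of 11571 sites in all. They fell to 6 of the 9 genes: 9 sites to EGFR, 10 to ERRFI1, 3 to BTC, 2 to TGFA and 1 each to AREG and EREG. HBEGF, ERBB2 and ERBB3 had no site.

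The ChIP-seq was made in A549, a line of human lung carcinoma epithelial cells with type II pneumocyte features, of WT genotype. After a night without serum, cells were not stimulated (NS) or were treated for 1 h with IL-1β at 1 ng/mL, budesonide at 300 nM or IL-1β-plus-budesonide. The 18 samples form 9 groups of 2 libraries from 2 independent experiments: 8 with the GR antibody GR356, 8 with a RELA antibody and 2 inputs. For each 400 bp site the deposited table gives a fold relative to NS, taken here as log2, a binding intensity on the same scale and a false discovery rate (FDR), for GR with budesonide, GR with IL-1β-plus-budesonide, RELA with IL-1β and RELA with IL-1β-plus-budesonide. Each value covers both libraries of a group. Values per library were not at hand. Neither read depth nor replicate error is known, and values therefore stand without an error or a further test. Each FDR compares a treatment with NS. A difference between cotreatment and a single agent is a difference of 2 log2 folds that share the NS libraries, and it was not tested.

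EGFR is a receptor tyrosine kinase of epithelial cells. Its ligands amphiregulin (AREG), epiregulin (EREG), heparin-binding EGF-like growth factor (HBEGF), transforming growth factor α (TGFA) and betacellulin (BTC) are made as membrane proteins and shed by proteases. Bound EGFR pairs with itself or with ERBB2, which has no known soluble ligand, or ERBB3, whose own kinase is weak, and signals through RAS, MAP kinases and PI3 kinase. ERRFI1, also called MIG6, binds the kinase domain of active EGFR and blocks it, and is itself induced by EGFR signalling, which closes a feedback loop. Budesonide is a glucocorticoid that activates GR, whose DNA element is the palindromic GRE. NF-κB, whose dimers bind κB elements, is activated by the cytokine IL-1β. AP-1, a dimer of FOS and JUN proteins, shares many regulatory regions with both.

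The reference sequences of 7 sites are given first, since the binding values below belong to them. For EGFR and ERRFI1 they are the sites of the highest GR intensity with budesonide and of the highest RELA intensity with IL-1β, and for AREG, TGFA and BTC the site of the highest intensity. Each line holds 120 bases around the centre of a site, from the plus strand of GRCh38, and distances are from the gene's transcription start in the gene's own direction. None of these windows overlaps an annotated exon. Capitals mark matches on either strand to 1 of 3 elements: the GRE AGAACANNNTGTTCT with at least 10 of its 12 defined bases, the κB consensus with all 9 of its defined positions, and the AP-1 element TGANTCA with all 6.
EGFR 51.2 kb upstream (chr7:54967535-54967654): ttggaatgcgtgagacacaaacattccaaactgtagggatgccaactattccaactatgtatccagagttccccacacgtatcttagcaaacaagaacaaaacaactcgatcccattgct
EGFR 46.0 kb downstream (chr7:55065159-55065278): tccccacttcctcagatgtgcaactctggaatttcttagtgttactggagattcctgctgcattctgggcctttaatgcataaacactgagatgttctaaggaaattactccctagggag
AREG 100.9 kb downstream (chr4:74546146-74546265): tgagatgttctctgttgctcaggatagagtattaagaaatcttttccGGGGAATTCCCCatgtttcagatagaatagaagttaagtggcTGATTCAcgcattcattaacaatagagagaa
TGFA 29.5 kb downstream (chr2:70524425-70524544): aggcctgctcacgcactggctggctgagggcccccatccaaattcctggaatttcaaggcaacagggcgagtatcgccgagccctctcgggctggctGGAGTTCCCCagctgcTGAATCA
BTC 140.2 kb downstream (chr4:74654223-74654342): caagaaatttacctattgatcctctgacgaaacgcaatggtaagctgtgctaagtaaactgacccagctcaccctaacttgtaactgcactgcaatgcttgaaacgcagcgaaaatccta
ERRFI1 44.6 kb upstream (chr1:8071039-8071158): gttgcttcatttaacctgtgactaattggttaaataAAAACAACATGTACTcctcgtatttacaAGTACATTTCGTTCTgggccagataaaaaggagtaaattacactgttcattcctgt
ERRFI1 21.4 kb upstream (chr1:8047842-8047961): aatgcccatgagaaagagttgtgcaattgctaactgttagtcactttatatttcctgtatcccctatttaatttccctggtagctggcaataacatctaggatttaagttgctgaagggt

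GR was called at 16 of the 26 sites (61.5%) with budesonide, against 56.0% of all sites, and at 17 with IL-1β-plus-budesonide, against 60.5%. A call means an FDR of at most 0.05, a log2 fold above 1 and an intensity of at least 4, the rule that the site labels of the deposited table follow at 11571 of 11571 sites. RELA was called at 12 of the 26 with IL-1β, against 40.9%, and at 12 with cotreatment, against 42.1%. Both factors were called on cotreatment at 10, against 26.8% of all sites. Counting a call in either treatment, 10 sites had both factors, 10 had GR alone, 5 had RELA alone and 1 had neither. These shares lie near those of the whole table (29.1%, 42.0%, 21.8% and 7.18%), and the 26 sites are too few to read a difference from. Within 1 kb of a start lay 1 of the 26 sites (3.85%), against 3.45% of all sites, and the median distance was 47.6 kb, against 64.0 kb.

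EGFR and ERRFI1 had many sites for single genes. The table assigns sites to 4714 genes with a median of 2 sites, and 9 or more sites occurred at 130 genes (2.76%) and 10 or more at 86 (1.82%). The stretch of genome nearest to each start was not measured, so these counts are not densities of binding. GENCODE placed the start of the same gene nearest to the site centre among protein-coding genes at 26 of the 26 sites. Being nearest does not show that a site acts on that gene.

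At EGFR, GR and RELA were called at partly different sites. The gene spans chr7:55019017-55211628 on the plus strand, and its 9 sites stretch over 147.3 kb, 5 upstream of the start and 4 inside the gene, with 8.18 to 49.3 kb between neighbouring centres. GR was called at 4 of the 9 with budesonide (56.0% of all sites) and at 4 with IL-1β-plus-budesonide (60.5% of all sites). RELA was called at 6 with IL-1β (40.9% of all sites) and at 5 with cotreatment (42.1% of all sites). Across both treatments 3 sites had both factors, 2 had GR alone, 3 had RELA alone and 1 had neither, where the table as a whole has 29.1%, 42.0%, 21.8% and 7.18%. The 9 sites are too few to set EGFR apart from the table.

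The strongest GR site of EGFR lay 51.2 kb upstream of the start (chr7:54967395-54967794). Its GR intensity was 6.96 with budesonide and 6.93 with cotreatment, at log2 folds of 5.30 (FDR 1.2e-06) and 5.27 (FDR 1.5e-06). RELA at the same site reached an intensity of 5.14 with IL-1β (log2 fold 2.83, FDR 0.013) and 5.70 with cotreatment (log2 fold 3.35, FDR 0.0030). All 4 values passed the call rule. The GR folds of the 2 treatments differed by -0.03, and the RELA fold was 0.52 higher on cotreatment, just past the 0.5 that the table counts as a trend. By GR intensity with budesonide it ranked at percentile 94.9 of all sites. The sequence printed above holds no match to any of the 3 elements.

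The site at the EGFR start had GR calls and no RELA call. It lies 317 bp downstream of the start (chr7:55019338-55019737), overlaps exon 1 including coding bases, and has a GC content of 74.0%, the highest of the 26. GR intensity was 6.52 with budesonide (log2 fold 5.04, FDR 1.2e-09) and 6.35 with cotreatment (log2 fold 4.87, FDR 4.5e-09). RELA intensity there was 4.80 with IL-1β and 4.26 with cotreatment, above 4 in both, but the folds relative to NS were 1.35 (FDR 0.216) and 0.65 (FDR 0.553). Intensity in NS cells is not listed, so the RELA signal before treatment at this site is not shown. In the 26 sites it is the 1 within 1 kb of a start.

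The strongest RELA site of EGFR lay 46.0 kb downstream of the start, in intron 1 (chr7:55065019-55065418). RELA intensity was 7.55 with IL-1β (log2 fold 4.06, FDR 7.0e-08) and 7.37 with cotreatment (log2 fold 3.88, FDR 3.4e-07), at percentiles 98.7 and 98.7 of all sites. GR at this site passed the call rule on cotreatment but not with budesonide. With budesonide its log2 fold was 2.99 (FDR 0.016) at an intensity of 3.88, just under the limit of 4, and with cotreatment the log2 fold was 4.87 (FDR 6.4e-05) at an intensity of 5.80. The GR fold was thus 1.89 higher on cotreatment, and the change of call rests on the intensity limit alone. An AP-1 match, TGACTCA, lies 96 bp from the centre, outside the 120 bases printed.

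RELA sites without GR were found upstream of EGFR. At 42.0 kb upstream (chr7:54976584-54976983), RELA rose by a log2 fold of 7.14 in response to IL-1β (FDR 6.1e-09), the highest of the 26 sites, and 6.69 with cotreatment (FDR 9.4e-08). The intensities were 5.12 and 4.46, below the folds, and intensity in NS cells is not listed. The size of the rise is therefore uncertain. GR intensity there was 2.90 with budesonide and 2.20 with cotreatment, with FDRs of 0.648 and 0.964. At 22.7 kb upstream, RELA intensity was 6.28 with IL-1β (log2 fold 4.20, FDR 3.5e-04) and 5.08 with cotreatment (log2 fold 3.13, FDR 0.0086), and GR was not called. At 30.8 kb upstream, RELA was called with IL-1β at an intensity of 4.60 (log2 fold 3.21, FDR 0.0045), while with cotreatment it had an intensity of 3.36 (log2 fold 2.01, FDR 0.084). GR intensity at the same site was 4.08 and 4.34, past the limit of 4, but its FDRs of 0.121 and 0.054 missed the rule.

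The other EGFR sites differed among themselves. The intron 1 site 37.5 kb downstream had all 4 values called, with GR intensities of 4.61 (FDR 8.0e-04) and 5.38 (FDR 3.6e-05) and RELA intensities of 5.34 (FDR 0.0033) and 4.97 (FDR 0.011). The farthest site, 100.5 kb upstream, had a GR call with budesonide and not with cotreatment. Its GR log2 fold was 2.45 with budesonide (FDR 0.0082) and 0.21 with cotreatment (FDR 0.836), a difference of -2.24 that ranks at percentile 1.26 of all sites. RELA there was at intensities of 0.92 and 0.58, which places both among the lowest of the table (percentiles 4.63 and 1.08). The intron 1 site 29.2 kb downstream passed the rule for neither factor, although RELA intensity was 5.28 with IL-1β and 5.00 with cotreatment. The RELA log2 folds there were 1.31 (FDR 0.051) and 0.92 (FDR 0.175). This site holds a κB match, GGGGCATTCC.

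**Figure D1:**
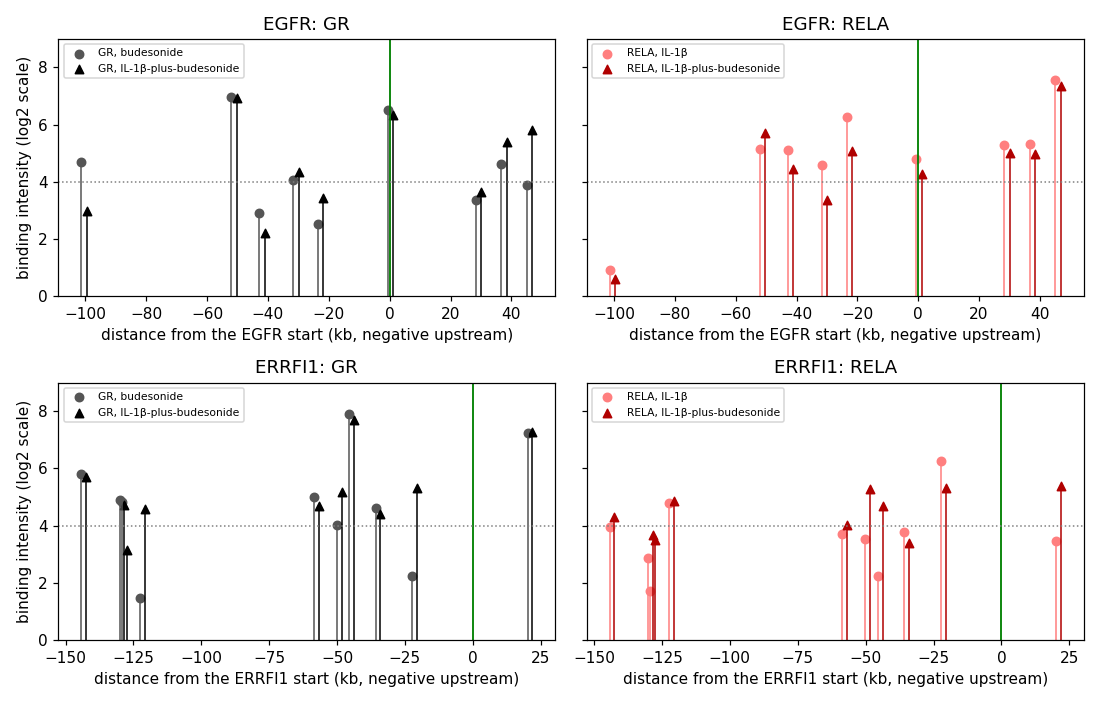
Binding intensity (log2 scale, as deposited) at the EGFR sites (upper row) and the ERRFI1 sites (lower row) by distance from the start in kb, for GR (left) and RELA (right); circles are the single agent, triangles are cotreatment, set just left and right of the site, the green line is the start and the dotted line is the intensity of 4. GR peaks at 51.2 kb upstream and at the start of EGFR while RELA peaks at 46.0 kb downstream, and GR peaks at 44.6 kb upstream and 21.0 kb downstream of ERRFI1.

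ERBB2 and ERBB3, the partners of EGFR, had no site of either factor assigned to them, and none lay within 50 kb of either gene. For ERBB2 (chr17:39687914-39730426), the nearest site centre was 176.3 kb from the start, was assigned to IKZF3 and had RELA calls at intensities of 6.75 and 6.68. For ERBB3 (chr12:56076799-56103505), the nearest centre was 228.7 kb away, was assigned to DNAJC14 and had GR calls at 5.37 and 6.07. How the sites of the table were chosen is not stated in the sources used here, and binding outside them was not analysed here.

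Among the ligands, RELA sites were found at AREG, EREG, TGFA and BTC, and GR sites at AREG, TGFA and BTC. HBEGF (chr5:140332843-140346603) had no site, and the nearest centre was 125.7 kb from its start, was assigned to CYSTM1 and had GR calls at 5.95 and 5.79. AREG, EREG and BTC lie close together on chromosome 4, and 5 of the 7 ligand sites lie there. AREG had no site within 50 kb, and the site closest to its start was that of EREG.

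AREG, which encodes amphiregulin, was assigned 1 site, 100.9 kb downstream of its start and beyond its end (chr4:74546006-74546405). RELA intensity was 5.45 with IL-1β (log2 fold 3.29, FDR 2.2e-04) and 5.80 with cotreatment (log2 fold 3.64, FDR 4.7e-05), both called. GR was at an intensity of 0.00 with budesonide, the floor of the table, with a log2 fold of 0.00, and at 4.19 with cotreatment (log2 fold 4.88, FDR 0.029). GR was therefore called on cotreatment alone, close to both limits, and from an intensity at the floor the size of the rise is not well defined. The centre of the site holds GGGGAATTCCCC, a palindrome that matches κB on both strands 6 bp from the centre, and an AP-1 match, TGATTCA, 33 bp from it.

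EREG, which encodes epiregulin, had 1 site, 10.0 kb downstream of its start in intron 1 (chr4:74375180-74375579). RELA passed the rule with IL-1β at an intensity of 4.17 (log2 fold 2.26, FDR 0.040), near each limit, and with cotreatment had an intensity of 3.01 (log2 fold 0.97, FDR 0.404). GR intensities were 2.94 and 2.75, with no call. The site lies largely in repeated sequence: 64.8% of its 32-base words occur elsewhere in GRCh38, 1 of them at 15023 places. Of the 26 sites, 24 had at least 90% unique words, and the other site below that was EGFR 42.0 kb upstream, with 81.0%. The part of repeated sequence in either result was not tested.

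TGFA, which encodes transforming growth factor α, had 2 sites, both within the gene (chr2:70447284-70554193, minus strand), 1 with each factor. At 29.5 kb downstream, in intron 1 (chr2:70524285-70524684), RELA intensity was 5.67 with IL-1β (log2 fold 1.98, FDR 0.030) and 4.57 with cotreatment (log2 fold 0.59, FDR 0.549), a difference of -1.39 between the folds. GR at that site was not called, with intensities of 3.18 and 3.97. The sequence holds the κB match GGGGAACTCC, printed above as its reverse complement, and the AP-1 match TGAATCA. At 91.8 kb downstream, in intron 3, GR was called with both treatments, at intensities of 4.55 (log2 fold 2.52, FDR 0.0034) and 4.35 (log2 fold 2.31, FDR 0.0075), and RELA intensities were 0.51 and 1.90. That site holds a GRE match of 10 positions, GGGACAGAGTGTTCT, 21 bp from its centre.

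BTC, which encodes betacellulin, had 3 sites, all beyond the 3′ end of the gene (chr4:74744759-74794523, minus strand). The farthest, 140.2 kb downstream of the start (chr4:74654083-74654482), bound both factors. GR intensity was 4.75 with budesonide (log2 fold 4.51, FDR 5.9e-05) and 5.74 with cotreatment (log2 fold 5.47, FDR 1.3e-06), and RELA intensity was 6.21 with IL-1β (log2 fold 4.64, FDR 1.1e-04) and 5.79 with cotreatment (log2 fold 4.29, FDR 3.9e-04). The sites closer to the gene carried GR calls without RELA calls. At 126.2 kb, GR intensities were 4.36 (FDR 0.029) and 4.26 (FDR 0.032). RELA at that site had a log2 fold of 4.22 on cotreatment (FDR 0.0075), but its intensity of 3.01 missed the limit. This fold exceeds the intensity, and RELA intensity with IL-1β was 0.00, the floor of the table, so the size of the rise is uncertain. At 52.1 kb, GR was called with budesonide at 4.54 (log2 fold 2.09, FDR 0.010), and its intensity was 3.78 with cotreatment (log2 fold 1.14, FDR 0.172). This last site holds the GRE match TGCACATTATGTTCT, 11 bp from its centre.

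**Figure D2:**
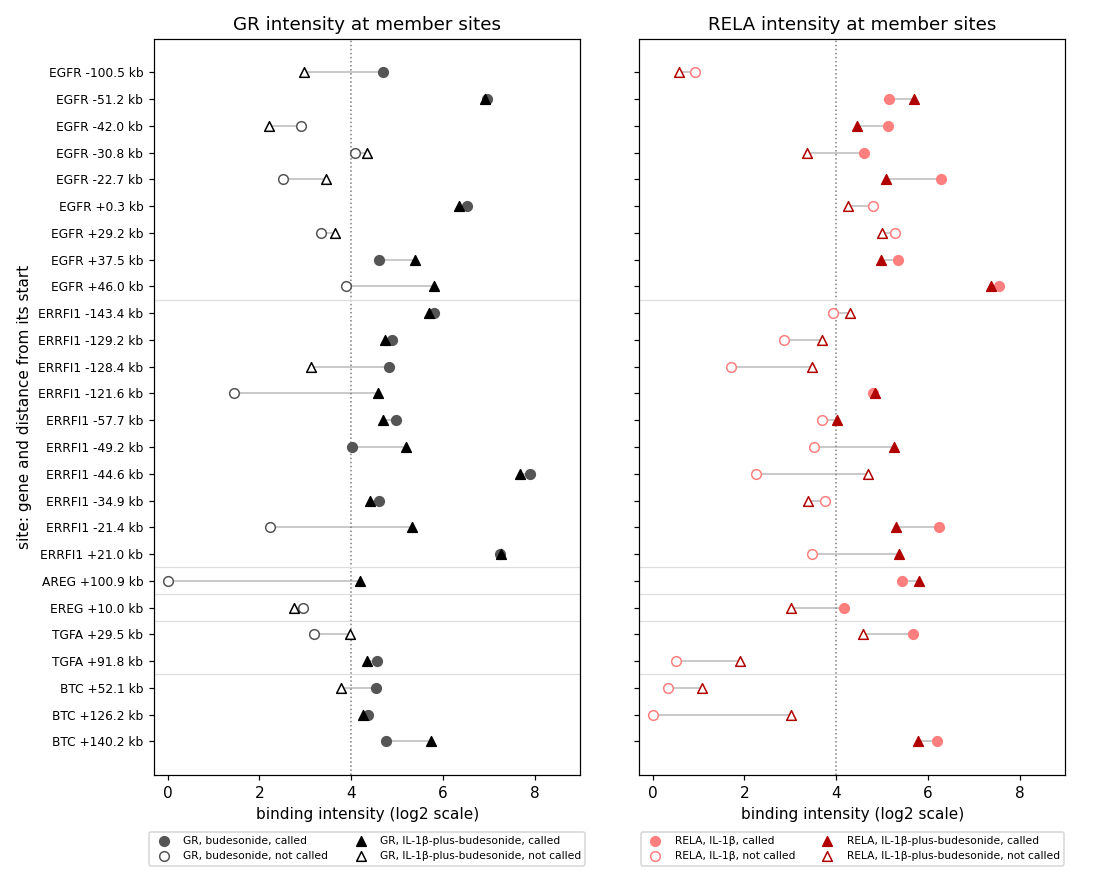
Binding intensity (log2 scale, as deposited) at each of the 26 sites for GR (left) and RELA (right); circles are the single agent, triangles are cotreatment, filled symbols passed the call rule, open symbols did not, and the dotted line is the intensity of 4. GR at AREG, at EGFR 46.0 kb downstream and at ERRFI1 21.4 and 121.6 kb upstream rises past the line on cotreatment. RELA rises past it at ERRFI1 21.0 kb downstream and at ERRFI1 44.6, 49.2, 57.7 and 143.4 kb upstream, with open symbols at 44.6 and 143.4 kb.

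At ERRFI1, each of the 10 sites had a GR call in at least 1 treatment, as had 8221 of all 11571 sites. RELA was called at more ERRFI1 sites with cotreatment than with IL-1β. The gene spans chr1:8004404-8026309 on the minus strand, and its sites stretch over 165.2 kb, 9 upstream and 1 downstream of the start, with 0.82 to 64.0 kb between neighbouring centres. GR was called at 8 of the 10 with budesonide (56.0% of all sites) and at 9 with cotreatment (60.5% of all sites). RELA was called at 2 with IL-1β (40.9% of all sites) and at 5 with cotreatment (42.1% of all sites). At 21.0 kb downstream and 57.7 kb upstream, RELA with IL-1β passed the FDR and fold limits and missed only the intensity limit (3.47 and 3.70). Both factors were called at 5 sites over both treatments (29.1% of all sites) and GR alone at the other 5 (42.0% of all sites). The 5 sites from 21.4 to 57.7 kb upstream lie in intron 2 of ERRFI1-DT, the divergent long non-coding RNA of the locus.

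The highest GR intensity of the 26 sites was at ERRFI1 44.6 kb upstream (chr1:8070899-8071298). It was 7.90 with budesonide (log2 fold 7.60, FDR 9.6e-17) and 7.69 with cotreatment (log2 fold 7.39, FDR 5.8e-16), at percentiles 98.5 and 98.0 of all sites. RELA intensity at this site was 2.25 with IL-1β (log2 fold -2.17, FDR 0.128) and 4.69 with cotreatment (log2 fold 1.92, FDR 0.133). The RELA fold was 4.09 higher on cotreatment, at percentile 98.8 of all sites, yet neither value differed from NS at an FDR of 0.05. Its sequence holds GRE matches of 10 positions at 2 places, of which AGTACATTTCGTTCT lies 12 bp from the centre.

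The highest GR fold of the 26 was at ERRFI1 21.0 kb downstream (chr1:8004883-8005282), near the 3′ end of the gene and beyond its canonical transcript. GR log2 folds were 9.47 with budesonide (FDR 8.7e-12) and 9.47 with cotreatment (FDR 9.0e-12), at intensities of 7.24 and 7.26. These folds exceed the intensities, and intensity in NS cells is not listed, so the size of the rise is uncertain. RELA at this site passed the FDR and fold limits with IL-1β (log2 fold 5.36, FDR 8.2e-05) at an intensity of 3.47, under 4, and with cotreatment had a log2 fold of 7.00 (FDR 6.8e-07) at an intensity of 5.37. The GR folds differed by 0.00, while the RELA fold was 1.64 higher with budesonide added. The site also overlaps exon 6 of a long non-coding RNA, ENSG00000284747.

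The strongest RELA site of ERRFI1 lay 21.4 kb upstream (chr1:8047702-8048101) and had no GR call with budesonide. RELA intensity was 6.25 with IL-1β (log2 fold 4.20, FDR 3.2e-05) and 5.31 with cotreatment (log2 fold 3.33, FDR 0.0011). GR was at a log2 fold of -0.20 with budesonide (FDR 0.890, intensity 2.24) and 3.64 with cotreatment (FDR 8.6e-04, intensity 5.32). The GR fold was 3.84 higher on cotreatment, at percentile 98.0 of all sites, and the RELA difference was -0.88. The site 121.6 kb upstream followed the same order of calls. GR there had an intensity of 1.45 with budesonide (log2 fold 2.60, FDR 0.096) and 4.59 with cotreatment (log2 fold 5.47, FDR 1.9e-04). Both GR folds exceed their intensities, so the size of the rise is uncertain. RELA at this site stayed at 4.80 with IL-1β (FDR 0.010) and 4.84 with cotreatment (FDR 0.0086). It holds the κB match GGGAATTTCC 2 bp from its centre.

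RELA calls were added on cotreatment at ERRFI1 49.2 and 57.7 kb upstream, where GR was called with budesonide. At 49.2 kb, RELA intensity was 3.51 with IL-1β (log2 fold 0.93, FDR 0.364) and 5.26 with cotreatment (log2 fold 2.93, FDR 9.1e-04), and GR intensity was 4.02 with budesonide and 5.19 with cotreatment. This site holds a κB match, GGGAATTTCC, 47 bp from its centre. At 57.7 kb, RELA intensity was 3.70 with IL-1β (log2 fold 2.96, FDR 0.030) and 4.02 with cotreatment (log2 fold 3.23, FDR 0.017), so that the change of call there is a step of 0.32 across the limit of 4. GR intensities at 57.7 kb were 4.98 and 4.70.

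The remaining 4 ERRFI1 sites carried GR without a RELA call. GR intensities with budesonide were 4.60 at 34.9 kb, 4.82 at 128.4 kb, 4.89 at 129.2 kb and 5.80 at 143.4 kb upstream. On cotreatment they were 4.41, 3.13, 4.73 and 5.69, so that the 128.4 kb site fell under the limit, with a difference of -1.52 between its GR folds. Its log2 fold of 4.16 on cotreatment (FDR 0.0043) still passed the other limits, and the call was lost through the intensity alone. This fold exceeds the intensity, so its size is uncertain. The sites at 128.4 and 129.2 kb have centres 819 bp apart. RELA intensities at these 4 sites ranged from 1.70 to 3.94 with IL-1β and from 3.37 to 4.30 with cotreatment, with FDRs of 0.058 or above.

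When both agents were given, gains and losses of calls occurred in both directions. GR calls were gained at 4 of the 26 sites, against 15.1% of all sites, and lost at 3, against 10.5%. RELA calls were gained at 3, against 9.90%, and lost at 3, against 8.75%. The gained RELA calls were all at ERRFI1, and the lost ones were at EGFR 30.8 kb upstream, EREG and TGFA 29.5 kb downstream. With so few sites these counts do not set the genes apart from the table.

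Calls of the other factor with its own single agent were counted at sites with gained, lost and kept calls. GR calls were gained at EGFR 46.0 kb downstream (by its intensity alone), ERRFI1 21.4 and 121.6 kb upstream, and AREG. These 4 sites had a RELA call with IL-1β at 4 of 4, against 65.7% of the 1742 such sites in the table. The 3 sites with a lost GR call (EGFR 100.5 kb upstream, ERRFI1 128.4 kb upstream by its intensity alone, BTC 52.1 kb downstream) had one at 0 of 3, against 2.47% of 1216. RELA calls were gained at ERRFI1 49.2 kb upstream and, by intensity alone, at ERRFI1 57.7 kb upstream and 21.0 kb downstream. These 3 sites had a GR call with budesonide at 3 of 3, against 71.1% of 1145. The 3 with a lost RELA call had one at 0 of 3, against 13.9% of 1013. Where calls were kept with both treatments, the other factor's call was present at 3 of 13 sites for GR, against 21.5%, and at 3 of 9 for RELA, against 27.4%. The members follow the pattern of the whole table here and are part of it. A gained call is by definition absent with the single agent, and 7.18% of all sites had a call of neither factor. A call of the other factor at gained sites is thus partly fixed in advance. Its share over all sites without that single-agent call was not computed, so no link between the factors is read from these counts.

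By size of the difference, GR folds were higher on cotreatment by more than 0.5 at 7 of the 20 sites with a GR call, against 31.6% of all such sites, and lower at 3, against 34.0%. The median GR difference was -0.10 at these 20 and -0.10 over the 8221 GR sites of the table. RELA folds were higher at 3 of the 15 sites with a RELA call, against 24.9%, and lower at 5, against 30.9%. The median RELA difference was -0.35 at these 15 and -0.20 over the 5883 RELA sites of the table. At the sites with a RELA call, the median RELA difference was -0.41 over 6 at EGFR and 0.27 over 5 at ERRFI1. Over all their sites it was -0.40 at EGFR and 0.62 at ERRFI1, against 0.10 over the 11571 sites, and the ERRFI1 value includes uncalled sites such as that 44.6 kb upstream. All 10 ERRFI1 sites had a GR call, and over the 8221 GR sites of the table the median RELA difference was 0.55. The RELA fold was above that with IL-1β at 1 of the 9 EGFR sites and 8 of the 10 ERRFI1 sites, against 53.7% of all sites. At the sites with a RELA call this held at 1 of 6 at EGFR and 4 of 5 at ERRFI1, against 40.1% of the 5883. The scaling of the libraries, which the sources used here do not state, sets the zero of these differences.

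**Figure D3:**
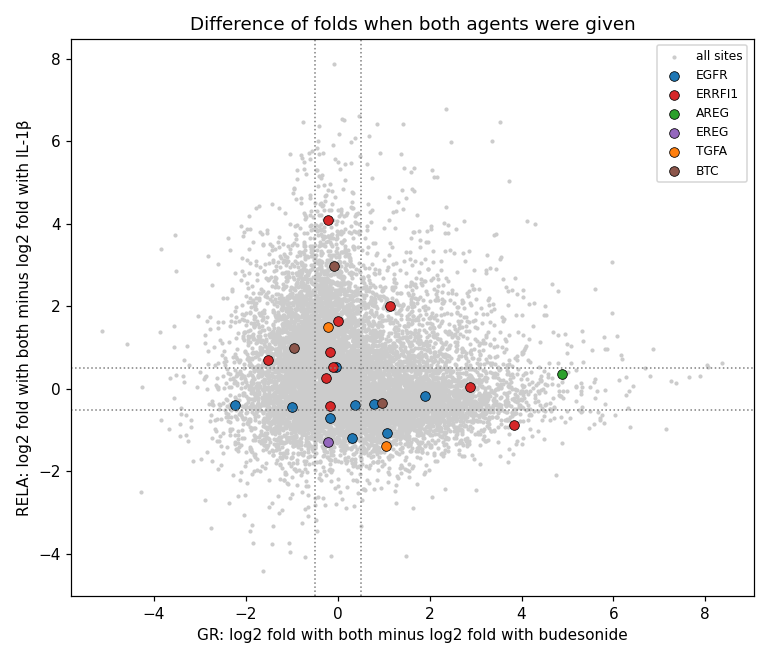
Difference of log2 folds relative to NS, IL-1β-plus-budesonide minus the single agent, for GR (horizontal) and RELA (vertical), at all 11571 sites (grey) and the 26 sites by gene (colours); dotted lines mark differences of 0.5 either way. EGFR sites lie at or below 0.52 on the RELA axis, ERRFI1 sites reach 4.09 on it, and AREG lies farthest right of the 26 at a GR difference of 4.88, which starts from an intensity of 0.00, the floor of the table, and is not well defined in size.

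Elements were searched in the central 200 bp of each site on both strands. A GRE match was found at 3 of the 26 sites (ERRFI1 44.6 kb upstream, TGFA 91.8 kb and BTC 52.1 kb downstream), against 12.4% of all sites, and each of the 3 had a GR call. Over the whole table, 97.6% of the 1432 sites with a GRE match had a GR call in either treatment, against 67.3% of those without. A κB match was found at 6 of the 26, against 18.7%, and 5 of the 6 had a RELA call, the exception being EGFR 29.2 kb downstream. Over the whole table these shares were 87.5% with and 42.4% without a κB match. An AP-1 match was found at 5 of the 26, against 21.0%, and 5 of the 5 had a RELA call in either treatment. Over the whole table, 56.2% of the 2434 sites with an AP-1 match had a RELA call, against 49.4% of those without. A GR call was present at 3 of the 5 sites with an AP-1 match and at 17 of the 21 without. Over the whole table the shares with a GR call were 70.4% with and 71.2% without an AP-1 match. The printed sequences of EGFR 51.2 kb upstream, BTC 140.2 kb downstream and ERRFI1 21.4 kb upstream, bound by both factors, hold no capitals, which says that these letters are not in the window and nothing about the factors.

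Sites of the wider EGFR pathway were counted in a list of 51 further genes, of which 27 had 93 sites. GR was called at 54 of the 93 (58.1%) with budesonide and at 56 (60.2%) with cotreatment, and RELA at 43 (46.2%) with IL-1β and at 43 with cotreatment, against 56.0%, 60.5%, 40.9% and 42.1% of all sites. Other ligands of the family (EGF, EPGN and the neuregulins) had 14 sites at 3 of 6 genes, 12 of them at NRG1, and the receptor ERBB4 had none. The sheddases and their regulators had 5 sites at 3 of 5 genes, the adaptors and signalling proteins 26 sites at 10 of 22, and the negative regulators 48 sites at 11 of 17. The strongest GR site of the list was 94.3 kb upstream of PTPN1, a tyrosine phosphatase, at 9.57 with budesonide and 9.77 with cotreatment. With only the strongest site of each gene ranked, it was followed by CBLB, a ubiquitin ligase, at 8.05 with budesonide, and SPRY2, an inhibitor of RAS signalling, at 6.64. By RELA intensity with IL-1β, the strongest were PTPN1 109.8 kb upstream (7.72), SRC 37.3 kb downstream (6.70) and SPRY4 104.9 kb downstream (6.65).

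Genes most like EGFR and ERRFI1 in binding were sought by the Euclidean distance over 4 intensities, with each of 4714 genes represented by its strongest site. EGFR was represented by its site 46.0 kb downstream, and the nearest genes were ARSG (distance 0.38), CYP2T1P (0.40) and GPR37L1 (0.51). ERRFI1 was represented by its site 44.6 kb upstream, and the nearest were NBPF10 (0.29), KRT7 (0.52) and DDX3X (0.53). Likeness here is of 4 numbers at 1 site per gene.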

How the data were processed

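ChIP-seq of GR and RELA in A549 cells gave 1 deposited table of 46284 lines, 4 for each of 11571 sites. Per the labels, the authors aligned reads to GRCh38 with Bowtie2 2.4.4, and the submitters' processing notes also list FastQC 0.10.1, MACS2 2.2.7.1, DiffBind 3.2, SAMtools and bcl2fastq. The deposited fold relative to NS and the deposited binding intensity were taken as log2. Where intensities exceeded 0, fold and intensity moved between treatments by amounts within 0.5 of each other at 90.6% (GR) and 86.5% (RELA) of sites, which shows a shared log scale and not its base. The deposited FDR is a p-value adjusted over sites by the authors (a q-value), and its method and the scaling of libraries are not given in the sources used here. These columns are the authors' own comparisons with NS and were described as deposited, without new tests, since they are the measurements the table holds. GR after IL-1β alone and RELA after budesonide alone were not analysed here.

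Sites were assigned by the table's nearest gene, and every site of the 9 genes is described. A call needed an FDR of at most 0.05, a log2 fold above 1 and an intensity of at least 4. A difference between treatments counted as a change past 0.5. Percentiles rank a site among all sites. Sequences and annotation came from GRCh38 and GENCODE 44. Elements (GRE, κB, AP-1) were sought in the central 200 bp on both strands, and overlaps between different elements were allowed; the search was tested on simulated data. The check of repeated 32-base words, the medians of RELA differences at called sites of single genes, the calls at AP-1 matches and the calls of the other factor at gained and lost sites were added after the values were seen. The sequences of 2 sites, 1 of EGFR and 1 of EREG, are not reported here. The members and gene lists were chosen with earlier results of these data known. Alternatives changed the limits of a call, the assignment of sites, the size of a change and the elements. Python 3.11.15, pandas 2.3.3, NumPy 2.4.6, pysam 0.24.0 and Matplotlib 3.10.9 were used.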

Additional observations from a re-analysis of the deposited data

How the results depend on the processing

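Of 28 alternative settings, 19 kept the count of member sites within 1.5 times its main value. With sites within 50 kb of a gene in place of the nearest gene (16 sites), GR was called at 8 with budesonide (16 before) and 9 with cotreatment (17), RELA at 7 with cotreatment (12), and lower GR folds were found at 1 site (3). Fewer sites enter with this setting, and the GR shares moved as well. GR with budesonide was called at 8 of the 16 sites against 16 of 26, where the share over all sites is 56.0%. GR with cotreatment was called at 9 of the 16 against 17 of 26, where that share is 60.5%. Both GR shares thus went from above the share over all sites to below it. RELA changed by more than 0.5 at 16 of all 26 sites, against 8 of the 15 with a call. GRE matches rose to 9 sites with at least 9 positions (34.5% of all sites) and fell to 0 with at least 11 (3.05%), against 3. κB matches rose to 14 with at least 8 positions (49.0%), against 6, and AP-1 matches to 8 in the whole site (30.8%), against 5. A stricter FDR of 0.01, no intensity minimum and a fold limit of 0 moved no count of calls by over 1.5 times.

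No paired analysis was possible because the deposited table gives 1 value per site, factor and treatment and none per library. Leaving out a library was not possible either. Depth, replicate error and the scaling between libraries are unknown. Values close to a limit include GR with budesonide at ERRFI1 49.2 kb upstream (intensity 4.02) and at EGFR 46.0 kb downstream (3.88), RELA on cotreatment at ERRFI1 57.7 kb upstream (4.02), RELA with IL-1β at EGFR 29.2 kb downstream (FDR 0.051) and GR on cotreatment at EGFR 30.8 kb upstream (FDR 0.054).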
